A study of Mus musculus with 36 samples.

Results

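The genes described here are 10 genes of fast skeletal muscle fibres, Acta1, Myh4, Myh1, Ckm, Myl1, Tnnt3, Tnni2, Mylpf, Actn3 and Pvalb, out of 21705 genes in the table. They were taken by symbol from all 36 libraries, and they had been picked because of their levels in tumours grown from cell lines, so those levels, and any count made from them, are a description that supports nothing. The RNA came from mouse bladder cancer models. Line-derived tumours were 4 of MB49 and 2 of BBN963 (genotype Ctrl, untreated) and 4 of UPPL1541 (untreated, with alleles that include Upk3a-CreERT2, floxed p53 written p53f/f, and Rosa26LSL-Luc). Primary tumours were 9 UPPL tumours of that same genotype, untreated, and 11 BBN tumours of genotype Ctrl that had received the bladder carcinogen N-butyl-N-(4-hydroxybutyl)nitrosamine. The 6 cultures, all labelled Ctrl and untreated, were MB49, BBN963, UPPL1541, KT1044, KT1970 and KT1975, and what KT stands for is not given. In UPPL mice the Upk3a promoter, active in urothelial cells, drives the inducible recombinase. All tumours of a line come from the same line, ages and the graft site are not given in the labels, and each library is bulk RNA, so fewer muscle fibres and less RNA per fibre cannot be told apart.

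Skeletal muscle contracts when myosin of the thick filament pulls on actin of the thin filament, under control of calcium through the troponin complex. Fibres are named by their myosin heavy chain: Myh4 encodes the fastest form (IIB), Myh1 the IIX form, Myh2 the IIA form and Myh7 the slow form, while Myh3 and Myh8 encode embryonic and perinatal forms. The bladder wall holds smooth muscle, which uses Myh11, Acta2 and Actg2, and mature bladder is not known for fast skeletal fibres.

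Promoter sequence is shown for Acta1, Myh4, Myh1 and Pvalb, because Myh4, Myh1 and Pvalb were the members at 0 in every primary tumour, and Acta1 was the one with the highest values there. The RefSeq table of promoters (GRCm38.p6, while the deposited values were made on mm9) had 7 of the 10 members. Tnnt3, Tnni2 and Actn3 had no entry. Each sequence is the 250 bases before the start, read 5′ to 3′ on the strand of the gene, with matches to a MEF2 site or a CArG box in capitals. The windows are chr8:123894776-123895025 for Acta1 on the minus strand, chr11:67237562-67237811 for Myh4 and chr11:67199852-67200101 for Myh1, both on the plus strand, and chr15:78206401-78206650 for Pvalb on the minus strand.
Acta1: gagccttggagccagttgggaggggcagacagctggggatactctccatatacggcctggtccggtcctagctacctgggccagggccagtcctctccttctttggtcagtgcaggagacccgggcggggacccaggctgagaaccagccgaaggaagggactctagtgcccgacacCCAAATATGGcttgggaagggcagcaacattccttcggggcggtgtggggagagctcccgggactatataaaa
Myh4: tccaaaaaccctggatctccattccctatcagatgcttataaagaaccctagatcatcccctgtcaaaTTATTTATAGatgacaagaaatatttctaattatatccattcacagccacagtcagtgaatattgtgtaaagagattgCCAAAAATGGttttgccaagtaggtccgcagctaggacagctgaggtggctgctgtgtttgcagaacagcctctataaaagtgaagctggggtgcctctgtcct
Myh1: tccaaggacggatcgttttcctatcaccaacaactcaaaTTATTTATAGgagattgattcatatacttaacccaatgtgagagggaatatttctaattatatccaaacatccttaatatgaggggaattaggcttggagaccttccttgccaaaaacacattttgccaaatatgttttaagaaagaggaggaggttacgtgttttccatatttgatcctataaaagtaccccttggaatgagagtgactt
Pvalb: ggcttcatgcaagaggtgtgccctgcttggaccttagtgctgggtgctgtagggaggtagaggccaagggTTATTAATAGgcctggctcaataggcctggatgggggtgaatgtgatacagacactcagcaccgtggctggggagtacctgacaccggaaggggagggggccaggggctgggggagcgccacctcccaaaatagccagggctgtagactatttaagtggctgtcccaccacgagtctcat

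Both strands were searched for the MEF2 site (bound by MEF2 factors), the CArG box (bound by serum response factor), the E-box CANNTG (bound by MyoD-type factors) and TATAAA. Among 32851 promoters of the same length 2.92% held a MEF2 site, 1.47% a CArG box, 66.2% an E-box and 12.4% TATAAA. Myh4 held both of the rarer motifs, the MEF2 site from 182 to 173 and the CArG box from 104 to 95 bases before the start. Myh1 held the same MEF2 letters from 211 to 202, Acta1 a CArG box from 73 to 64, and Pvalb, in 1 of its 2 listed promoters, a MEF2 site from 180 to 171. Myh4 and Myh1, which lie next to each other in the genome, share 2 runs of at least 12 bases, aatatttctaattatatcca and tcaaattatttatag. No MEF2, CArG and E-box matches overlapped, while a TATAAA match on the opposite strand lies inside the MEF2 match of Myh4 and of Myh1. Ckm, Myl1 and Mylpf held an E-box and neither of the rarer motifs in these 250 bases. A match is a description of the letters, not a binding site.

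Values are RSEM gene estimates that the authors scaled so that the 75th percentile of each library is 1000, called deposited units here. Recovered depth ran from 9.29 to 17.9 M reads, and 1 read was worth 0.786 to 1.46 units. Among low values the commonest one stood for 1 read in cultures and for 2 to 19 reads in tumours. The cause was not tested, so low values and values of 0 in tumours are uncertain. BBN963 tumour 1 was the extreme, with 24.1 units (19 reads). Smaller values occurred there too, such as Atp2a1 at 1.27 units where 1 read was worth 1.27, so the commonest value is no limit of detection. No 2 columns were identical. Trp53 was at 30.4 to 158 units in UPPL primary tumours and 68.3 to 139 in UPPL1541 tumours against 796 to 2266 in BBN primary tumours. In the UPPL1541 culture, whose genotype label reads Ctrl, Trp53 was at 50.4 units against 1059 to 3017 in the other 5 cultures, so that label and the level of Trp53 do not match. Urothelial and epithelial genes were absent or nearly absent from the MB49 tumours (Krt5 1.12 to 11.7, Epcam 0 to 2.13 units), where the 6 genes of that list summed to 39.3 to 81.0 units against at least 71595 in every primary tumour.

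The 10 genes were at high levels in 5 of the 10 line-derived tumours, namely all 4 MB49 tumours and BBN963 tumour 2. They were at intermediate levels in UPPL1541 tumour 1 and at or near 0 in the other 4. Summed over the members, MB49 tumours 1 to 4 held 14288, 17600.4, 5302 and 15923 units. BBN963 tumour 1 held 31.7 units and BBN963 tumour 2 held 9989. UPPL1541 tumours 1 to 4 held 777, 95.2, 45.9 and 75.02 units. The 2 BBN963 tumours thus lay far apart, the first the lowest of the 10 and the other below MB49 tumours 1, 2 and 4, although the labels give them the same line, genotype and treatment. Primary tumours had a median sum of 167 units, with BBN975 highest at 2830.1 and UPPL1612 next at 756.

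**Figure D1:**
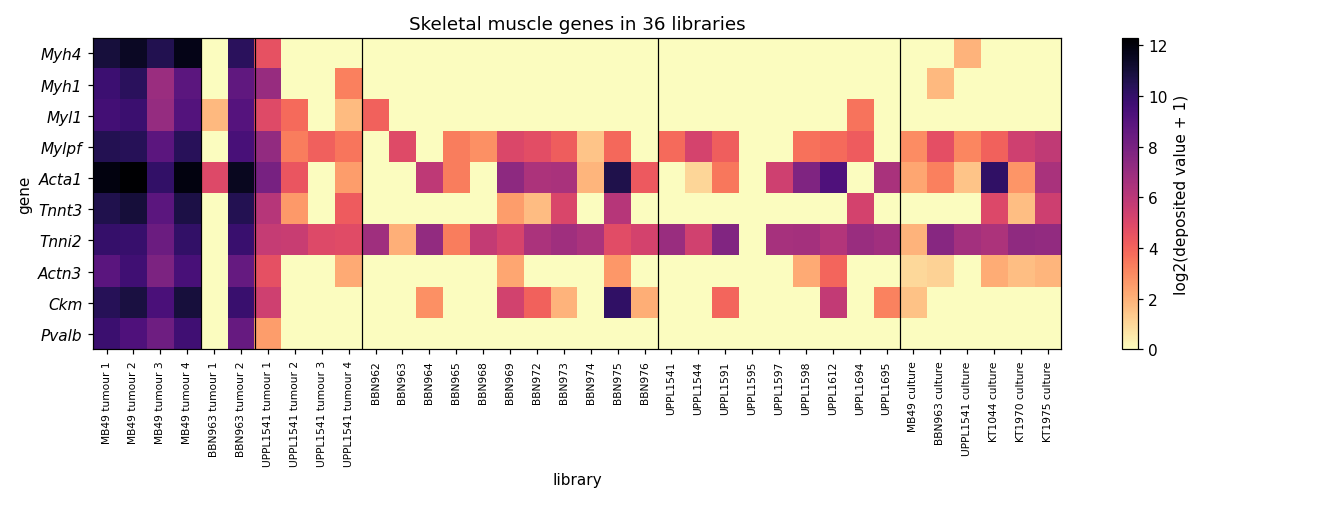
Heat map of log2(deposited value + 1) for the 10 muscle genes (rows) in 36 libraries (columns), with vertical lines between line-derived tumours, BBN primary tumours, UPPL primary tumours and cultures. The 4 MB49 tumours and BBN963 tumour 2 are dark in all 10 rows, UPPL1541 tumour 1 is intermediate, and Myh4, Myh1 and Pvalb are at 0 in all 20 primary tumours.

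As a share of all deposited values in a library, the members held 0.108%, 0.124%, 0.0390% and 0.118% in MB49 tumours 1 to 4 (0.0972% ± 0.0394, mean ± SD, n = 4). The share was 0.0688% in BBN963 tumour 2 and 0.00024% in BBN963 tumour 1. UPPL1541 tumour 1 held 0.00517%, above the other 3 UPPL1541 tumours, which reached 0.00062% at most. Over the 20 primary tumours the median share was 0.00125% and the highest 0.0192%, in BBN975. Even in the MB49 tumours these genes were therefore a small fraction of the RNA.

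**Figure D2:**
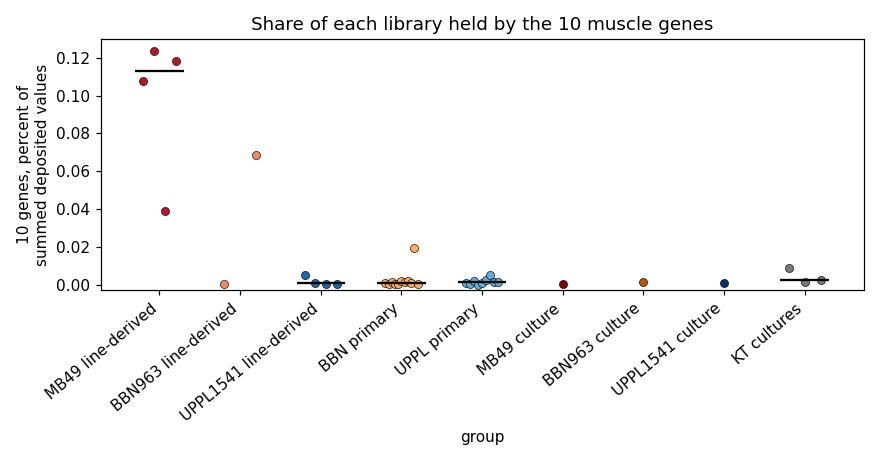
Share of the summed deposited values held by the 10 muscle genes, in percent, for each library (points) by group, with a bar at the median of groups of 3 or more. MB49 tumours lie between 0.0390% and 0.124%, BBN963 tumours at 0.00024% and 0.0688%, and primary tumours at or below 0.0192%.

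Among the myosin heavy chains, Myh4 stood at 1968, 2825, 1481 and 3385 units in MB49 tumours 1 to 4, at 0 and 1246 in BBN963 tumours 1 and 2, and at 22.7, 0, 0 and 0 in UPPL1541 tumours 1 to 4. The 4 MB49 tumours and BBN963 tumour 2 lay far above the other 5, with no value between 22.7 and 1246. Myh1 stood at 877, 1249, 124 and 458 units in the MB49 tumours, 0 and 426 in the BBN963 tumours, and 130.2, 0, 0 and 8.34 in the UPPL1541 tumours. For Myh1 the MB49 and UPPL1541 groups overlapped, since UPPL1541 tumour 1 lay just above MB49 tumour 3. The annotated transcripts of these 2 genes share part of their sequence: 10.6% of the 50-base windows of Myh4 also occur in Myh1, and 19.7% of those of Myh1 occur in Myh2, so reads in those stretches could be split between them.

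The light chains belong to the same thick filament. Myl1, the alkali light chain, was at 768, 901, 135 and 555 units in MB49 tumours 1 to 4, 2.54 and 523 in the BBN963 tumours, and 28.7, 13.0, 0 and 2.38 in the UPPL1541 tumours. Mylpf, the regulatory light chain of fast fibres, was at 1441, 1345, 459 and 1311 units in MB49, 0 and 702 in BBN963, and 146, 9.13, 16.1 and 10.7 in UPPL1541. For both light chains every MB49 tumour lay above every UPPL1541 and every primary tumour, and MB49 tumour 3 was the lowest of its group.

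In the thin filament, Acta1, skeletal muscle alpha-actin, was at 3915, 5045, 1078 and 3988 units in MB49 tumours 1 to 4, 29.2 and 3036 in the BBN963 tumours, and 258, 20.9, 0 and 4.76 in the UPPL1541 tumours. Acta1 had the highest value of the 10 members in MB49 tumours 1, 2 and 4 and in BBN963 tumour 2, while in MB49 tumour 3 Myh4 was higher. Its transcript shares no 50-base window with Actc1, Acta2 or Actg2, the cardiac and smooth muscle actins. Tnnt3, the tropomyosin-binding troponin T of fast fibres, was at 1568, 2000.0, 472 and 1683 units in MB49, 0 and 1434 in BBN963, and 69.3, 5.22, 0 and 17.9 in UPPL1541. Tnni2, the inhibitory troponin I of fast fibres, was at 988, 982, 334 and 1056 units in MB49, 0 and 938 in BBN963, and 51.4, 46.9, 29.8 and 27.4 in UPPL1541. Tnni2 was the member least restricted to these tumours: it was above 0 in 19 of 20 primary tumours and in all 6 cultures.

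Actn3, the fast-fibre alpha-actinin of the Z-disc, was at 481, 810.3, 233 and 688 units in MB49, 0 and 379.9 in BBN963, and 23.9, 0, 0 and 3.57 in UPPL1541. Ckm, the muscle creatine kinase that regenerates ATP, was at 1374.5, 1838, 673 and 1985 units in MB49, 0 and 940 in BBN963, and 41.8, 0, 0 and 0 in UPPL1541. Pvalb, the calcium buffer parvalbumin that speeds relaxation of fast fibres, was at 908, 605, 312 and 815 units in MB49, 0 and 364 in BBN963, and 4.78, 0, 0 and 0 in UPPL1541. For these 3 genes every MB49 tumour was above every UPPL1541 tumour and BBN963 tumour 2 lay inside the MB49 range.

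The order within a line was shared in part by the members. MB49 tumour 3 was the lowest MB49 tumour in 10 of 10 genes, and the highest was tumour 2 in 5, tumour 4 in 3 and tumour 1 in 2. UPPL1541 tumour 1 was the highest UPPL1541 tumour in 10 of 10. BBN963 tumour 2 lay within the MB49 range in 9 of 10 genes and below it in the other, Myh4, and it was below the MB49 median in 10 of 10. Every MB49 tumour was above every UPPL1541 tumour in 9 of 10 genes, beside 14.7% of all genes, and above every primary tumour in 8 of 10, beside 7.9% of all genes; the exceptions were Myh1 for the first and Acta1 and Ckm, both through BBN975, for the second. No share over all genes was taken for the lowest or highest tumour of a line, or for BBN963 tumour 2 against the MB49 range and median. Whether those orders are particular to the members is therefore not known. Because the genes were chosen for such levels, these counts are given as a description.

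Compared per kilobase of annotated transcript, which allows levels of different genes to be set side by side, Acta1 led in every MB49 tumour at 2707, 3489, 745 and 2758 units per kb. Mylpf stood at 1881, 1755, 599.9 and 1712 and Tnnt3, which passed Mylpf in tumour 2, at 1453, 1854, 438 and 1559.8. Tnni2 stood at 1286, 1279, 434.5 and 1375 units per kb. The heavy chain Myh4 was lower at 327, 470, 246 and 563 units per kb, and Actn3 at 167, 281, 80.9 and 238. BBN963 tumour 2 had Acta1 at 2099, Tnnt3 at 1329, Tnni2 at 1221 and Mylpf at 917 units per kb, so Mylpf was below both troponins there and above both in MB49 tumours 1, 3 and 4.

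Differences between groups were also fitted for all genes with limma (trend) on log2(value + 1), with Benjamini-Hochberg adjustment over all genes tested and a threshold of 0.05. For the members the choice of genes set the outcome of these comparisons in advance, so the counts below describe the fits, are no test of the members, and nothing is read from them. The labels do not say that tumours of a line came from separate animals, and p-values measure the spread between these libraries, which may be technical. UPPL1541 tumours were lower than MB49 tumours in 10 of 10 members, beside 22.6% of all genes lower and 49.9% called in either direction. BBN963 tumours were lower than MB49 tumours in 2 of 10, Myh4 and Pvalb, beside 26.1% of all genes lower and 41.9% called in either direction. UPPL1541 against BBN963 tumours gave 0 calls among 10 by limma (21.4% of all genes higher, 7.37% lower, 28.8% in either direction), with 1 at an unadjusted p under 0.05 and 8 lower by edgeR on recovered reads. BBN963 line-derived tumours were higher than BBN primary tumours in 3 of 9 tested, Myh4, Myh1 and Myl1, and lower in 0, beside 2.09% of all genes higher, 5.67% lower and 7.76% called in either direction. UPPL1541 line-derived against UPPL primary tumours gave 0 of 9 by limma (20.5% of all genes higher, 5.98% lower, 26.5% in either direction), with 2 at an unadjusted p under 0.05 and 1 higher by edgeR. All these shares of all genes are from limma. The share called by edgeR is not given here, so the edgeR counts of members cannot be set against them.

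The counts with BBN963 rest on which of its 2 tumours is kept, and the lone tumour is then assumed to vary like the other groups. Without BBN963 tumour 1, 9 of the members were lower in UPPL1541 than in BBN963 (662 of all 14535 genes tested were lower) and 0 were lower in BBN963 than in MB49 (2757 of 14535). Without BBN963 tumour 2, 10 were lower in BBN963 than in MB49 (3664 of all 14509 genes tested) and 0 were higher in BBN963 than in BBN primary tumours (84 of 15160).

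The mix of myosin heavy chains differed between libraries with high totals. Of the summed value per kb of Myh4, Myh1, Myh2, Myh7, Myh3 and Myh8, Myh4 made up 66.8%, 67.4%, 90.4% and 86.4% in MB49 tumours 1 to 4, 56.1% in BBN963 tumour 2 and 9.33% in UPPL1541 tumour 1. Myh1 made up 29.5%, 29.5%, 7.47% and 11.6% in the MB49 tumours, 19.0% in BBN963 tumour 2 and 52.9% in UPPL1541 tumour 1. The ratio of the Myh1 to the Myh4 value was 0.446 and 0.442 in MB49 tumours 1 and 2 but 0.0835 and 0.135 in tumours 3 and 4. The MB49 tumours thus fell into 2 pairs on this ratio, unlike their totals, where tumour 3 stood alone. In UPPL1541 tumour 1 the ratio was 5.74, on a summed value of 40.5 units per kb against 272 to 697 in MB49.

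The IIA form, which is neither slow nor developmental, and the slow and developmental forms separated BBN963 tumour 2 from the MB49 tumours. Myh2, the IIA form, made up 13.4% of the heavy chain value there and 0.775% to 2.81% in MB49. Myh8, the perinatal form, made up 7.34% against 0.21% to 0.692%, and Myh7, the slow form, 1.54% against 0 in all 4 MB49 tumours. In UPPL1541 tumour 1, Myh8 reached 21.6% and Myh3 10.3%. Each of these 2 line-derived tumours is a single library, so the difference from MB49 has no replicate check.

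**Figure D3:**
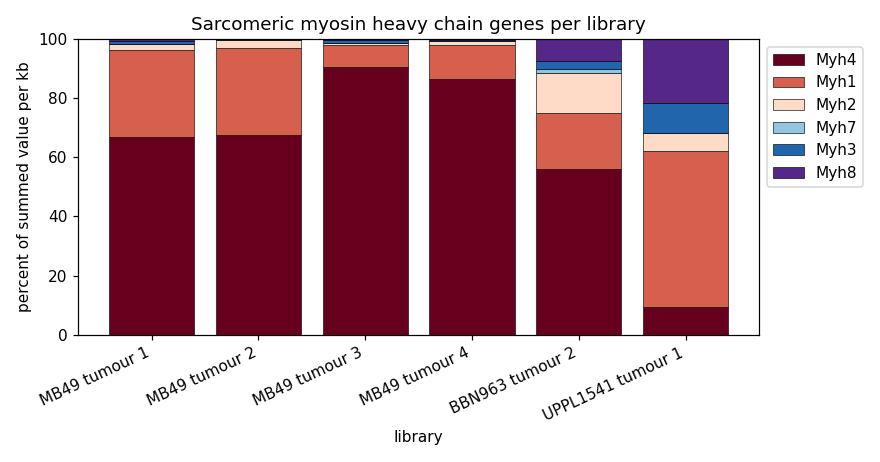
Stacked bars of the share of 6 sarcomeric myosin heavy chain genes, in percent of their summed value per kb of transcript, for the 6 line-derived tumours with all 10 members above 0. Myh4 is the largest part in the MB49 tumours (66.8% to 90.4%) and in BBN963 tumour 2 (56.1%), and Myh1 in UPPL1541 tumour 1 (52.9%).

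The lists of slow and embryonic genes, which include Myh7, Myh3 and Myh8, went the same way. Of the 10 slow-fibre genes, BBN963 tumour 2 exceeded every MB49 tumour in 8, and of the 5 embryonic or perinatal genes in 4, beside 21.9% of all genes. Myh7 is among those 8, and Myh3 and Myh8 are among those 4, so the counts partly repeat the heavy chain shares. In 3 of those 8 slow-fibre genes BBN963 tumour 1, with few muscle transcripts, also exceeded every MB49 tumour: Casq2 (200.5 units against at most 65.1), Tpm3 (2887 against at most 1448) and Myh7b (17.8 against at most 3.20). The BBN963 culture held Casq2 at 516 and Tpm3 at 3273 units, so these 2 genes were not tied to the members in this line. BBN963 tumour 2 exceeded every MB49 tumour in 3 of 28 other sarcomere genes and 3 of 18 calcium-handling genes, beside the same 21.9% of all genes. Myh7 was at 35.5 units in BBN963 tumour 2 and at 0 in the other 9 line-derived tumours, and Myl2, a slow light chain, at 7.35 units and 0. Tnnc1, the slow and cardiac troponin C, was at 273 units in BBN963 tumour 2 and 7.86 to 20.98 in MB49 tumours, and Tnnt1, the slow troponin T, at 139.7 against 0 to 20.98. Among the embryonic genes Myh8 was at 167 units against 7.46 to 20.8, and Myl4, an embryonic and atrial light chain, at 244 against 22.4 to 61.4. The exception was Tnnt2, the cardiac and embryonic troponin T, at 408 units in BBN963 tumour 2 against 337 to 1724 in MB49. Tnnc1, Tnnt1 and Myh7b lie outside the rule for named genes and were chosen after their values were seen.

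Set against the summed members, 8 of the 10 slow-fibre genes and 4 of the 5 embryonic or perinatal genes were again above all MB49 tumours in BBN963 tumour 2. No share over all genes was taken on this scale, so its counts are a description only. A gene not tied to the members rises on it where their sum is low. Per 1000 units of summed members, Mb, myoglobin, the oxygen store of oxidative fibres, was at 68.1 in BBN963 tumour 2 and at 10.6 to 12.9 in the MB49 tumours, and Myh2 at 30.1 against 2.42 to 6.76. Mb was 5.92 and Myh2 7.84 times the MB49 median on this scale. The members themselves differed less: BBN963 tumour 2 was above all MB49 tumours in 3 (Acta1, Tnnt3 and Tnni2), below all in 3 (Myh4, Ckm and Mylpf) and within their range in 4. Their ratios to the MB49 median ran from 0.662 for Pvalb to 1.45 for Tnni2. Mb and Myh2 were also chosen after their values were seen. Of the energy list, which holds Mb, 6 of 16 genes were above all MB49 tumours on this scale, 4 below all and 6 within. Of the sarcomere list, which holds Myh2, 9 of 28 were above all, 4 below all and 15 within. The calcium list had 8 of 18 above all, 2 below all and 8 within. For the genes of muscle stem cells and early differentiation it was 3 of 13 above all, 2 below all and 8 within. Cox7a1 of the energy list was at 0 in BBN963 tumour 2 against 0.947 to 5.23 in MB49, and Cox6a2 and Cox8b lay within the MB49 range. These Cox genes too were named after their values were seen.

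Other genes of the fibre followed the members. Of 28 other sarcomere genes, 27 were higher in BBN963 tumour 2 than in tumour 1, beside 38.0% of all genes. In 23 of the 28 every MB49 tumour was above every UPPL1541 tumour, beside 14.7% of all genes. Ttn, the titin spring, was at 748, 1240.2, 386 and 809 units in MB49, 0 and 603 in BBN963, and 50.2, 2.61, 0 and 8.34 in UPPL1541. Neb, nebulin, the thin filament ruler, was at 271, 813, 134 and 508 units in MB49, 24.1 and 357 in BBN963, and 68.1, 0, 8.69 and 0 in UPPL1541. Tnnc2, the fast troponin C, reached 1270.5 units in MB49 tumour 2 and 1126 in BBN963 tumour 2, and Mybpc2, fast myosin-binding protein C, 857 and 472. Xirp2, a protein of the Z-disc and intercalated disc, was at 82.1 units in BBN963 tumour 2 and 83.6 in UPPL1541 tumour 1, although the members summed to 9989 and 777 units there. In the limma fit, 25 of the 28 were lower in UPPL1541 than in MB49 tumours and 0 higher, beside 22.6% of all genes lower and 27.3% higher, in a comparison the members were chosen from.

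Among 18 genes of excitation-contraction coupling, Atp2a1, the calcium pump of the fast fibre, was at 1441, 2109, 841 and 2704 units in MB49, 1.27 and 1547 in BBN963, and 49.4, 1.30, 0 and 0 in UPPL1541. Ryr1, the calcium release channel, was at 66.6, 262, 97.0 and 241 units in MB49, 0 and 82.1 in BBN963, and 48.98, 37.8, 23.6 and 19.1 in UPPL1541. Cacna2d1, a calcium channel subunit that other tissues also express, went the other way, at 574 to 1979.7 units in UPPL1541 tumours and 35.2 to 137 in MB49. It was the gene of this list called higher in UPPL1541 than in MB49, beside 8 called lower and 9 that did not pass (22.6% of all genes lower, 27.3% higher). Srl, sarcalumenin, was at 117 to 316 units in MB49 and 89.96 to 159 in UPPL1541, and at 1221 in primary tumour UPPL1595, where all 10 members were at 0.

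Of 16 energy genes 11 were lower in UPPL1541 than in MB49 tumours, 0 higher and 5 did not pass, beside the same 22.6% of all genes lower and 27.3% higher. Pygm, muscle glycogen phosphorylase, was at 485, 470.3, 276 and 705 units in MB49, 0 and 328 in BBN963, and 2.39, 0, 37.2 and 14.3 in UPPL1541. Ckmt2, the mitochondrial creatine kinase of muscle, was above 0 only in the 4 MB49 tumours (10.7 to 59.5 units) and BBN963 tumour 2 (67.4) among all 36 libraries. Eno3, the muscle enolase, was at 4591 to 4873 units in the MB49 tumours, with tumour 3 at 4848, and at 2706 in the MB49 culture, where the members were at 0 to 6.75 units. Fbp2, muscle fructose bisphosphatase, was at 0 in both BBN963 tumours and at 238 to 441 units in MB49. Eno3 and Fbp2 therefore did not follow the order of the members.

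Among genes of muscle stem cells and of early differentiation, Myod1 and Myog were low, while Cdh15 and Mef2c reached higher values. Myod1 and Myog, which commit cells to the muscle lineage, were at most 12.3 and 34.3 units, both in BBN963 tumour 2, and in MB49 tumours at 0 and at 6.40 to 10.4. Pax3 was at 0 in MB49 and BBN963 tumours and at 10.7 to 50.9 units in UPPL1541 tumours, and Cdh15, M-cadherin, at 91.3 to 165 in UPPL1541 against 0 to 24.97 in MB49. Mef2c, which encodes a MEF2 transcription factor, was at 86.4 to 331 units in MB49, 48.2 and 107 in BBN963 and 179 to 354 in UPPL1541. These 3 genes were thus not lower in the UPPL1541 tumours with few muscle transcripts. Mstn, the growth inhibitor myostatin made by fibres, was at 23.5 to 55.2 units in the 4 MB49 tumours and at 0 in every other line-derived and primary tumour; it was chosen after its values were seen.

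Markers of other tissues were set beside the members. Myh6, the atrial and adult mouse ventricular myosin, was at 0 in all 36 libraries, and Krt25, a hair follicle keratin, likewise. Adipoq and Plin1, which define fat cells, were at 0 to 47.8 and 0 to 11.7 units in MB49 tumours, at 22.7 and 1.19 in UPPL1541 tumour 1, and at 0 in both BBN963 tumours. The 11 adipocyte genes summed to 699 to 2037 units in MB49, 397 and 1368 in BBN963, 211 to 549.5 in UPPL1541 and 114 to 1204 in primary tumours. Most of that in MB49 was Car3, a carbonic anhydrase that slow fibres also express, at 448 to 1609 units in MB49, 0 and 769.6 in BBN963 and 10.4 to 195 in UPPL1541. The 13 smooth muscle genes, of which Des is also made by skeletal fibres, summed to 4428 to 10701.5 units in MB49, 10708 and 9915 in BBN963 and 3726 to 11359.6 in UPPL1541, so their sums overlapped between the lines. Des itself was at 308 to 1578 units in MB49, 198 and 1326 in BBN963 and 6.52 to 219.8 in UPPL1541. The 8 fibroblast genes summed to 15189 to 111297 units in MB49, 113637 and 87161 in BBN963 and 75493 to 375570 in UPPL1541; the part of these tissues in the muscle levels was not tested. The 9 Schwann cell genes summed to 2373 to 2588 units in MB49, 1317 and 1208 in BBN963 and 1335 to 1724 in UPPL1541. The 7 endothelial genes summed to 2209 to 3206, 1966 and 2043, and 713 to 2646 units, and the 11 hair follicle genes to 0 to 32.0, 553 and 479, and 652 to 876. Of the 9 cardiac genes Nppb, a natriuretic peptide, was at 224 to 821 units in MB49 tumours. It was at 0 and 99.3 in BBN963 tumours, 0 to 11.9 in UPPL1541 tumours and 5.50 to 146 in the cultures. Myzap of the same list went the other way, at 0 to 6.99 units in MB49, 256 to 283 in BBN963 and 370 to 470 in UPPL1541 tumours. The other cardiac genes were at 23.3 units or less in MB49 tumours.

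**Figure D4:**
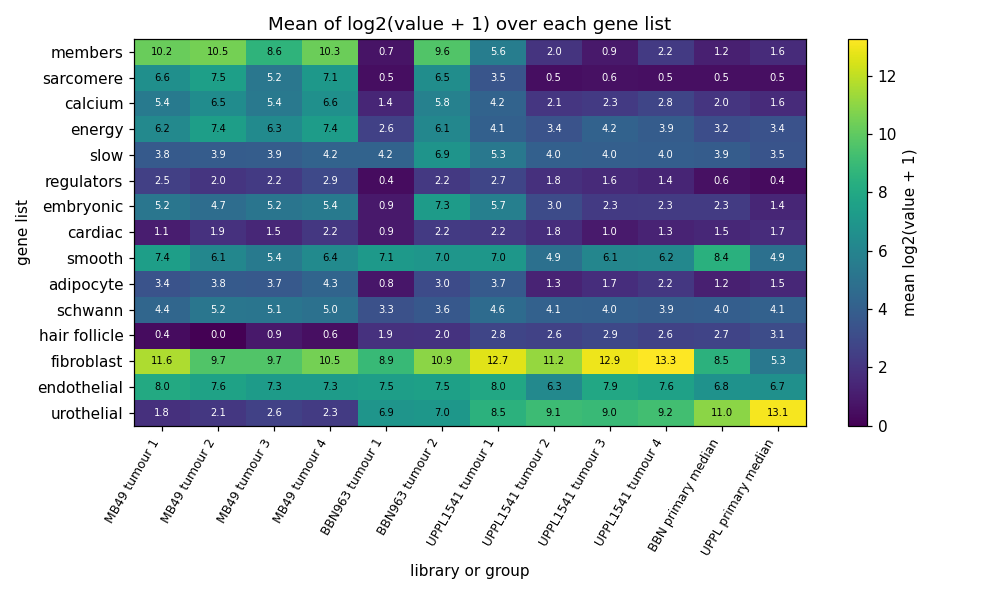
Mean of log2(deposited value + 1) over each gene list (rows) in 10 line-derived tumours and, for primary tumours, the median over tumours of a group (columns). The members, sarcomere, calcium and energy rows are high in the MB49 tumours and BBN963 tumour 2, where Myh7 reached 35.5 and Myh8 167 units.

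The genes were chosen for their levels in transplanted tumours, and UPPL and BBN primary tumours were compared in a separate limma fit, which called 18.5% of all 12818 genes tested, 5.71% higher in UPPL and 12.8% lower. Of the 10 members 3 passed the filter on low values, and 0 of the 3 passed the test: Acta1 (107 ± 198 units in 9 UPPL and 185 ± 477 in 11 BBN tumours, mean ± SD; log2 fold change -0.49, SE 1.49, adjusted p = 0.846), Tnni2 (97.7 ± 59.2 against 63.8 ± 46.4; 0.46, SE 0.82, adjusted p = 0.725) and Mylpf (12.1 ± 11.5 against 12.1 ± 11.99; 0.01, SE 0.94, adjusted p = 0.999). None of these 3 had an unadjusted p under 0.05, and edgeR called 0. The standard errors are near or above 1 for Acta1 and Mylpf, so the intervals of these differences are wide. Without BBN975 the Acta1 difference became 0.15. Of the 22 genes of all skeletal muscle lists that passed the filter, 1 was higher in UPPL (Fbp2, 1205 ± 415 against 363 ± 259.7 units; log2 fold change 1.93, SE 0.33, adjusted p = 0.000636), 1 lower (Tnnt2) and 20 did not pass, with a median of -0.38 beside -0.19 for all genes. Tnnt2 (log2 fold change -3.30, SE 1.13, adjusted p = 0.0456) did not pass under quantile normalization (adjusted p = 0.0698), median-of-ratios scaling (0.0535) or edgeR (0.0895), and on leaving out 1 tumour it passed without BBN962, BBN974, BBN976, UPPL1591, UPPL1612 or UPPL1695 and not without any of the other 14.

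Acta1 and Ckm were the members with values in primary tumours that approached the line-derived ones. In BBN975 Acta1 was at 1615 and Ckm at 1101 units, in UPPL1612 at 599.7 and 54.2, and over all 20 tumours the medians were 14.4 and 0. Myh4, Myh1 and Pvalb were at 0 and Tnnc2 at 8.09 and 0 units in these 2 tumours. Smooth muscle genes were highest in the same tumours, Myh11 at 60972 units in BBN975 and 11174 in UPPL1612 against a median of 362, and Des at 21495 and 6269.9 against 301. The 4 primary tumours with the most Myh11 (BBN975, UPPL1612, BBN969 and BBN972) were also, in the same order, the 4 with the most Ckm. The order of Acta1 differed: UPPL1598 was next after BBN975 and UPPL1612 with Acta1 at 219 units and Myh11 at 14.8, and UPPL1597 had Acta1 at 41.5 units with Myh11 at 0. The MB49 tumours had the opposite pattern, with Myh11 at 18.0 to 93.7 units beside Acta1 at 1078 or more. Sarcomere and calcium genes in BBN975 were high only in part: Myom1 was at 689 and Jph2 at 859.8 units, while Ttn was at 0, Neb at 4.04 and Atp2a1 at 5.39. Myom1 was chosen after its values were seen. The part of smooth muscle in the Acta1 and Ckm values was not tested.

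**Figure D5:**
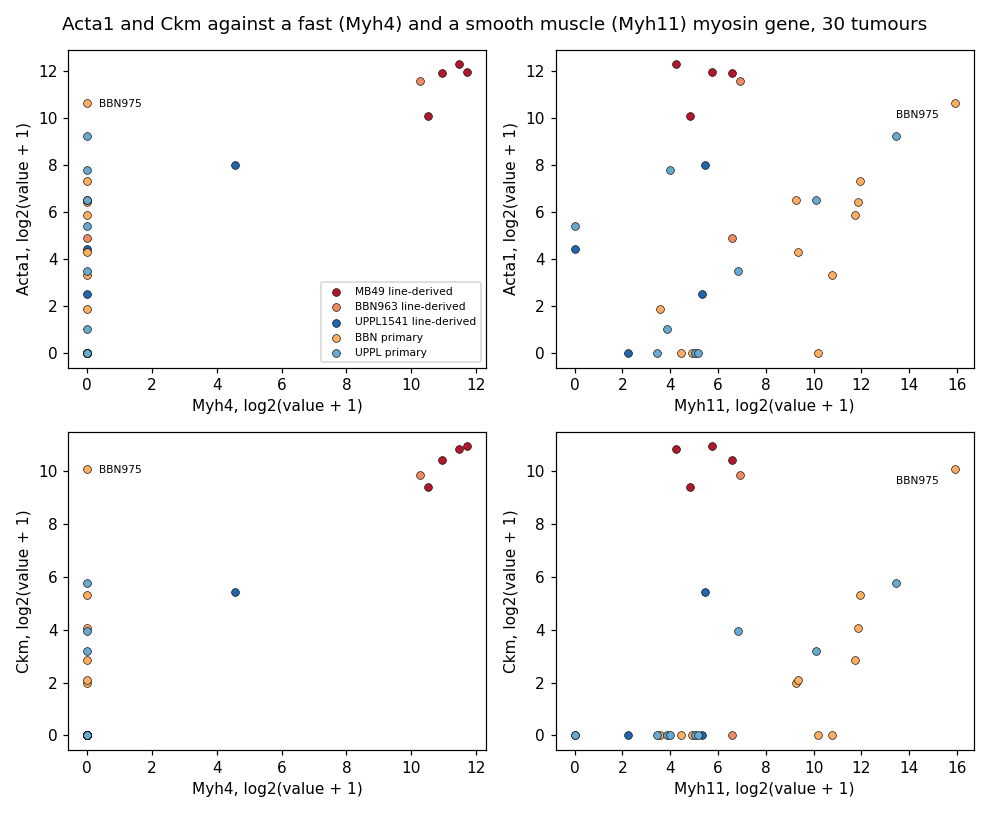
Acta1 (top) and Ckm (bottom) against Myh4 (left) and Myh11 (right) in 30 tumours, all as log2(deposited value + 1), coloured by group. MB49 tumours and BBN963 tumour 2 are high in Myh4 and low in Myh11, while BBN975, with Acta1 at 1615 units, has Myh4 at 0 and the highest Myh11 (60972).

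The other members in primary tumours were low. Tnni2 ranged from 0 to 211 units with a median of 86.8, Mylpf from 0 to 35.9, Tnnt3 from 0 to 68.7, Myl1 from 0 to 15.5 and Actn3 from 0 to 14.6. Tnnt3 was above 0 in 5 of 20 tumours, Actn3 in 4 and Myl1 in 2. UPPL1541 tumour 1 exceeded every primary tumour in 7 of 10 members, the exceptions being Acta1, Ckm and Tnni2. No share over all genes was taken for this count, so it is a description only. Tnni2 was lower in the 4 UPPL1541 tumours (27.4 to 51.4 units) than the median primary tumour.

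In culture the members were low except for Acta1 and Tnni2. Acta1 was at 1094 units in KT1044, 89.8 in KT1975 and 1.87 to 8.52 in the other 4 cultures. KT1044 thus exceeded MB49 tumour 3 in Acta1, with Myh4, Myh1, Ckm and Pvalb at 0. Tnni2 was at 184 units in the BBN963 culture, 102 in UPPL1541, 84.4 to 156 in the 3 KT cultures and 2.89 in MB49. The MB49 culture, of the line whose tumours held the most, had all 10 members between 0 and 6.75 units, and the BBN963 and UPPL1541 cultures had Ckm and Pvalb at 0. Each of the lines was cultured once, so cultures and tumours were not tested against each other.

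Genes outside the set with a pattern most like it were ranked by Pearson correlation of log2(value + 1) with the mean of the 10 members over 30 tumours, among 14184 genes. The first 10 were Tnnc2 (0.98), Atp2a1 (0.97), Myom2 (0.97), Smpx (0.96), Myot (0.96), Lmod2 (0.96), Eef1a2 (0.96), Myoz1 (0.96), Mybpc1 (0.96) and Csrp3 (0.96). All but Eef1a2, a translation elongation factor of muscle and neurons, and Csrp3, a muscle LIM protein, stand in the sarcomere or calcium lists. Eef1a2 was at 158, 169, 52.2 and 188 units in MB49 tumours 1 to 4, 0 and 102 in the BBN963 tumours, and 9.56, 0, 0 and 4.76 in the UPPL1541 tumours, and Csrp3 at 64.5, 76.3, 7.46 and 67.6, 0 and 80.9, and 4.78, 0, 0 and 0. The 5 libraries with high values carry these correlations, and tumours of a line share their origin, so they are a description. Among the members, pairwise correlations over the 30 tumours ran from 0.56 to 1.00 with a median of 0.83, and Tnni2 was least like the mean of the others (0.67) and Actn3 most (0.97).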

How the data were processed

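RNA-seq of 36 mouse libraries (RNeasy RNA, TruSeq Stranded mRNA) was analysed from 1 deposited table. Per the submitters' processing notes, RSEM, Picard 1.64, SAMtools and mm9 were used, without roles or order. The deposited signal values are gene estimates that, from the values, the authors scaled to a 75th percentile of 1000 per library. Between 92.0% and 96.3% of values per library were whole multiples of 1 read (tolerance 0.02), at 9.29 to 17.9 M reads, and 1 symbol on more than 1 line was left out. Groups came from the labels. Part of the UPPL genotype is not reported here. The fits used limma 3.58.1 (trend, R 4.3.3) on log2(value + 1), keeping genes that reached 10 units in as many libraries as the smaller group holds, or more, and Benjamini-Hochberg adjustment over all genes. A fold change is on that scale and understates the change of low genes. Means and SDs are of deposited units. Tables and figures used Python 3.11.15, numpy 2.4.6, pandas 2.3.3 and matplotlib 3.10.9. Alternatives were a pseudocount of 10, no filter or a stricter one, quantile normalization, median-of-ratios scaling, a replicate block, leaving out each library, leaving out the primary tumours that gave the lines and, chosen after seeing the data, edgeR 4.0.16 (quasi-likelihood) on recovered reads. On simulated data for UPPL against BBN primary tumours (12427 genes) limma recovered 46.3% of 2-fold, 71.6% of 4-fold and 90.9% of 16-fold changes. For UPPL1541 against MB49 tumours (13865 genes) it recovered 40.3%, 56.7% and 78.8%.

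The members and all gene lists were chosen with earlier results of these data known. Named are all members, the first 2 genes of each list and up to 3 more with the highest single value, and the 10 genes most like the members; other genes are said to be chosen after their values were seen. Promoters were those of RefSeq on GRCm38.p6, and shared 50-base windows were counted in annotated mouse transcripts.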

Additional observations from a re-analysis of the deposited data

Results flagged for a closer look

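Of 30 combinations of a member, or of the members' share, with a group of 4 to 10 libraries, 17 had a highest or lowest library far from the others by Dixon's test at 95%. Chance gives this in about 1 in 20 groups only for normally distributed values. These values include many at 0, so that rate does not apply and 17 of 30 shows no excess over chance. Values of members within a library are not independent of each other. The genes were chosen for their levels in line-derived tumours, so in the MB49 and UPPL1541 groups these distances describe the libraries and test nothing, and where the other tumours are all at 0 the distance rests on 1 value. MB49 tumour 3 was far below the other MB49 tumours in Tnni2 (334 units, next 982) and Mylpf (459, next 1311). UPPL1541 tumour 1 was far above the other UPPL1541 tumours in Acta1 (258 units, next 20.9), Myh4 (22.7, others 0), Myh1 (130.2, next 8.34) and Ckm (41.8, others 0). It also stood apart in Mylpf (146, next 16.1), Actn3 (23.9, next 3.57), Pvalb (4.78, others 0) and the members' share (0.00517%, next 0.00062%). UPPL1612 was far above the other UPPL primary tumours in Acta1 (599.7, next 219), Ckm (54.2, next 14.7), Actn3 (14.6, next 3.48) and the share (0.00529%, next 0.00242%). UPPL1694 was far above them in Myl1 (11.0) and Tnnt3 (38.0), both at 0 in the other 8, and UPPL1544 in Mylpf (35.9, next 18.0).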

How the results depend on the processing

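The number of skeletal muscle genes called, members included, moved by over 1.5 times in 5 of 6 comparisons. UPPL against BBN primary tumours gave 2, and 1 without a filter or with edgeR, and 1 to 3 leaving out 1 tumour, where Fbp2 passed in all 20 fits. UPPL1541 line-derived against UPPL primary tumours gave 9, and 15 with edgeR (7 to 11 leaving out 1). BBN963 line-derived against BBN primary tumours gave 14, and 25 with a pseudocount of 10, 28 without a filter and 1 with the stricter filter. It gave 25 without BBN963 tumour 1 and 1 without BBN963 tumour 2, the ends of the range. UPPL1541 against BBN963 gave 11, and 6 with the stricter filter, 32 with edgeR and 8 to 42 leaving out 1 tumour, with 42 reached without BBN963 tumour 1. BBN963 against MB49 gave 19, and 29 with a pseudocount of 10, 12 with the stricter filter, 11 with edgeR, 9 without BBN963 tumour 1 and 63 without BBN963 tumour 2. UPPL1541 against MB49 gave 62 and, leaving out 1 tumour, 55 to 67. The cause of these moves was not tested, apart from the fewer samples or genes in a fit.

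With a replicate block on the tumour number the counts were 63 for UPPL1541 against MB49, 7 for UPPL1541 against BBN963 (2682 of all genes called against 4208) and 14 for BBN963 against MB49. Same-numbered tumours did not deviate together over all genes (correlations from -0.093 to 0.066), which gave no sign that the numbers pair them. Pairing is not excluded, because the deviations of the 2 BBN963 tumours mirror each other and an effect on few genes would not show. BBN963 line-derived against BBN primary tumours called 1182 of all genes, 729 with edgeR, 232 without BBN963 tumour 1 and 653 without BBN963 tumour 2.

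The share of calls that were higher in UPPL than in BBN primary tumours was 30.9% as deposited, 48.7% after quantile normalization, 48.6% with median-of-ratios scaling and 55.1% with edgeR. For UPPL1541 against UPPL primary tumours it was 77.4%, 51.1%, 64.7% and 52.3%, with the median of all genes moving from 0.37 to -0.03 under quantile normalization. For UPPL1541 against BBN963 it was 74.4%, 52.3%, 59.6% and 53.6%. For BBN963 against BBN primary tumours it was 26.9% as deposited, 38.6% with median-of-ratios scaling and 42.9% with edgeR, and for BBN963 against MB49 37.7% and 50.8% with edgeR. Leaving out 1 primary tumour moved the log2 fold change of Acta1 between -1.18 and 0.15 and of Mylpf between -0.30 and 0.35, both through 0. The members' share in MB49 was 0.0972%, 0.0884% to 0.117% leaving out 1 tumour, and the other 90 skeletal muscle genes held 0.194%. Of the 10 genes most like the members, 8 to 10 remained leaving out 1 line-derived tumour. The commonest low value in a tumour stood for several reads, up to 19 in BBN963 tumour 1. The cause was not tested, which limits every statement on low values.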

Other observations

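Pax3, a regulator of muscle and neural crest precursors, was at 7.77, 60.5 and 146 units in the KT1044, KT1970 and KT1975 cultures and at 16.8 in the UPPL1541 culture, and at 0 in the MB49 and BBN963 cultures. In primary tumours it was at 56.8 units in UPPL1597 and at 0 in the other 19. Cdh15 was at 53.5 units in the BBN963 culture and at 0 and 13.5 in the BBN963 tumours 1 and 2. These values stand in no comparison with replicates.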
